A study of Mus musculus with 42 samples.

Results

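The genes described here are Atf4, Asns, Slc7a5, Slc3a2, Chac1, Trib3, Psat1, Phgdh, Shmt2 and Mthfd2, which take part in the amino acid response, serine synthesis and amino acid transport. They were taken as a list of names, by a rule that names no measured value, although the list was drawn up with earlier results of these data known. All 10 were found among the 54353 genes shared by the bulk RNA-Seq libraries and among the 35237 genes of the single-cell matrix. Atf4 encodes the transcription factor of the response. Phgdh and Psat1 encode enzymes that make serine from a glycolytic intermediate, and Shmt2 and Mthfd2 encode mitochondrial enzymes that pass the serine carbon to folate. Asns encodes asparagine synthetase. SLC7A5 and SLC3A2 together form a transporter of large neutral amino acids. Trib3 encodes a pseudokinase that restrains the response, and Chac1 encodes an enzyme that degrades glutathione.

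In the GRCm38 annotation, Atf4 (ENSMUSG00000042406) spans chr15:80255184-80257541 on the plus strand. Phgdh (ENSMUSG00000053398) lies at chr3:98313170-98339990 on the minus strand, and Psat1 (ENSMUSG00000024640) at chr19:15904678-15947337 on the minus strand. Shmt2 (ENSMUSG00000025403) is at chr10:127517123-127522444 on the minus strand and Mthfd2 (ENSMUSG00000005667) at chr6:83305691-83325908 on the minus strand. Of the others, Asns (ENSMUSG00000029752) spans chr6:7675169-7693254 on the minus strand and Slc3a2 (ENSMUSG00000010095) spans chr19:8706882-8723369 on the minus strand. Slc7a5 (ENSMUSG00000040010) is found at chr8:121881150-121907694 on the minus strand. Trib3 (ENSMUSG00000032715) is found at chr2:152337422-152344032 on the minus strand, and Chac1 (ENSMUSG00000027313) at chr2:119351229-119354381 on the plus strand of the same chromosome. Counts cover the exons of each gene.

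As background, lack of an amino acid or stress in the endoplasmic reticulum leads kinases to phosphorylate eIF2α. General translation then slows, whereas the Atf4 mRNA is translated more, so that ATF4 protein can rise without a rise of its mRNA. ATF4 binds its targets with C/EBP proteins and raises genes of amino acid synthesis, uptake and tRNA charging. Lymphocytes that are activated or dividing are known to use the same serine and folate enzymes to supply nucleotide synthesis.

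The study followed uterine tissue-resident NK cells (trNK), lymphocytes that expand in the mouse uterus in early pregnancy. All libraries came from wild-type C57BL/6 mice, by the methods females of 8 to 12 weeks, and each of the 17 bulk groups held 2 libraries. In the gestation experiment, trNK sorted as CD45+NK1.1+NKp46+CD49a+CXCR6- cells came from virgin mice and from gestation day (gd) 6.5 and gd8.5. In the subset experiment, gd8.5 trNK were divided by CD55 and 4-1BB (encoded by Tnfrsf9) into trNK-V (low), trNK-D (intermediate) and trNK-T (high). In the 3-day culture, live NK1.1+ cells were collected after culture of sorted trNK (by the study's account trNK-V cells of gd6.5 mice) without IL-21, with 20 ng/mL IL-21, or with IL-21 and 1 µM Stattic, an inhibitor of STAT3, by the labels (the methods print the unit of this dose as mM). By the methods, all 3 groups of that culture were kept in IL-15. In the time course, trNK of gd6.5 mice, by the study's account trNK-V cells, were kept in IL-15 for 0, 6, 24 or 72 h. The IL-15 dose was 10 ng/mL by the characteristics, and the treatment protocol of the same samples prints a higher dose. The cells were kept with or without 20 ng/mL IL-21, and libraries labelled with IL-21 exist at 0 h as well. The single cells were CD45+NK1.1+NKp46+ cells of virgin and gd8.5 uteri in 1 pooled matrix with no tag for the stage. The labels do not say which libraries came from separate mice, so the p-values measure the spread between these libraries, which may be technical.

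The libraries held 11861343 to 66462748 counts in the shared genes. Levels are given as RPKM (read counts scaled to exon length and to library size) after TMM scaling, in the order of replicates 1 and 2. A gene entered the edgeR test of an experiment if 1 group or more had both libraries above 10 RPKM before TMM scaling, so a printed level just above 10 can be under this filter. Calls required an adjusted p below 0.05 together with a more than 2-fold difference. Shares of all genes called are those of edgeR unless another method is named. Counts by DESeq2, an alternative test, or by unadjusted p have no share of their own in most comparisons, and nothing is read from those. Of the 10 genes, 7 passed this filter in the gestation and subset experiments, 9 in the 3-day culture and 6 in the time course. Some passed only through the groups where they were high, so counts over the tested genes are not counts over all 10. In the virgin group the libraries differed in Tnfrsf9, at 146 and 886. The 72 h libraries without IL-21 stood apart from the rest of the time course, with 8.44% and 11.8% of counts from mitochondrial genes against 1.9% to 5.73% in the others, and with 10724 and 11665 genes detected. Replicate 2 of IL-21 at 72 h was near them, with 12000 genes detected, 2343 genes above 10 RPKM, the fewest of the time course, and 27.97% of counts in its top 10 genes, against 23.8% and 27.8% in the 72 h libraries without IL-21 and 12.7% to 18.2% in the others. Genes listed as B cell markers summed to 46.4 to 469.9 RPKM without TMM scaling, whereas Ms4a1 among them was at 0 in all 34 bulk libraries; what part they had in the results was not tested. In sums over bulk cells, fewer cells of a type and less RNA per cell cannot be told apart.

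The promoters were searched for a core of the C/EBP-ATF element to which ATF4 binds, since most of these genes are known as its targets. The letters TGATGNAA, on either strand, were found in the 250 bases before the RefSeq start (GRCm38.p6) of Asns and Chac1, or 2 of the 9 genes with a promoter entry. Among all 27025 genes with an entry, 3.91% held these letters. The windows are shown 5′ to 3′ on the strand of each gene, with the match in capitals. The Asns window lies at chr6:7693214-7693243 on the minus strand, with the match starting 23 bases before the RefSeq start and within the span GENCODE gives to Asns. The Chac1 window lies at chr2:119351038-119351067 on the plus strand, upstream of the gene, and holds the letters in reverse complement. A match is a description of sequence and not a measured binding site.
Asns: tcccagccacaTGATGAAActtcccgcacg
Chac1: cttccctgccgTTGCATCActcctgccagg

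In the gestation experiment, the serine and folate enzymes were higher at gd6.5 than in virgin mice, and Atf4 mRNA was not. Phgdh, Shmt2, Mthfd2 and Asns rose 2.45- to 3.66-fold, and Psat1 was 1.92-fold higher, under the fold limit. Of these, Asns and Mthfd2 passed the filter only through groups where they were high, so nothing is read from their calls. At gd8.5, none of the 7 tested genes was called against virgin mice, where 0.422% of all genes were. The comparison asks how trNK change as the uterus decidualizes. The virgin libraries carry names of other series than the gd6.5 and gd8.5 libraries. Virgin replicate 1 also lists 55573 genes, against 54446 in the others. What these series stand for is not given, so a difference of pregnant from virgin libraries cannot be told apart from one between series.

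Phgdh, the first enzyme of serine synthesis, was at 94.7 and 114 RPKM in virgin mice, and reached 294 and 216 on gd6.5 and 134 and 136 on gd8.5. The libraries of the 3 stages did not overlap, with the highest level at gd6.5 and the lowest in virgin mice. The log2 difference of gd6.5 from virgin was 1.29 ± 0.20 (SE), adjusted p = 0.0288. Psat1, the next enzyme of the path, was at 30.8 and 38.8 RPKM in virgin mice, and reached 72 and 61.6 on gd6.5 and 42.5 and 44.7 on gd8.5. Its order over the stages was the same, again without overlap, and its log2 difference at gd6.5 was 0.94 ± 0.18 (SE), adjusted p = 0.0328.

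Shmt2, which moves the serine carbon to folate in mitochondria, was at 41.4 and 37.8 RPKM in virgin mice, and reached 111 and 91.6 on gd6.5 and 66.4 and 59.2 on gd8.5. The log2 difference of gd6.5 from virgin was 1.36 ± 0.17 (SE), adjusted p = 0.0255. Mthfd2, the folate enzyme that follows it, was at 10.4 and 12.9 RPKM in virgin mice, and reached 33.9 and 25.1 on gd6.5 and 22.8 and 21.4 on gd8.5. For both genes the 3 stages did not overlap and gd6.5 was highest. The log2 difference of Mthfd2 at gd6.5 was 1.34 ± 0.24 (SE), adjusted p = 0.0311.

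Asns did not follow the same order, since its gd8.5 libraries overlapped those of gd6.5. It was at 2.79 and 3.72 RPKM in virgin mice, and reached 14.1 and 9.77 on gd6.5 and 11.8 and 13.5 on gd8.5. Before TMM scaling, Asns passed the filter only through gd8.5, and Mthfd2 only through the pregnant groups. The log2 difference of Asns from virgin was 1.87 ± 0.32 (SE), adjusted p = 0.0311 at gd6.5, and 1.96 ± 0.32 (SE), adjusted p = 0.0839 at gd8.5, where it was not called although the size was similar.

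Atf4 itself was at 98.4 and 76.8 RPKM in virgin mice, against 79.5 and 83.2 on gd6.5 and 104 and 76.9 on gd8.5. The groups overlapped, and the log2 difference at gd6.5 was -0.11 ± 0.21 (SE), adjusted p = 0.752. Slc3a2, the shared heavy chain of several amino acid transporters, was the only tested gene whose virgin libraries were both above the pregnant ones. It was at 148 and 112 RPKM in virgin mice, against 93.8 and 88.5 on gd6.5 and 99.3 and 92.3 on gd8.5, and its log2 difference at gd6.5 was -0.51 ± 0.18 (SE), adjusted p = 0.111. Slc7a5, its light chain partner, did not pass the filter, at 1.0 and 2.48 RPKM in virgin mice, against 11.8 and 10.1 on gd6.5 and 2.84 and 3.05 on gd8.5. Its gd6.5 libraries were above all others, and before TMM scaling 1 of them was under 10 RPKM. With edgeR's own filter its log2 difference at gd6.5 was 2.68 ± 0.52 (SE), adjusted p = 0.0965, not called. With no filter, over 23601 genes, it was 2.69 ± 0.49 (SE), adjusted p = 5.80e-06, called. The difference and SE were nearly the same in both fits, so nothing more is read from the lower adjusted p. Trib3 and Chac1 were at or near 0, with at most 2.55 RPKM in any library and both virgin libraries at 0.

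Of the 7 tested genes, 4 were called higher at gd6.5 and none lower. Among all 4504 tested genes, 3.17% were called higher and 3% lower. The median log2 difference was 1.29 over the 7 genes and -0.02 over all genes. Libraries did not overlap, with gd6.5 higher, for 5 of the 7 genes, against 31.5% of all genes. Asns and Mthfd2 are among these 5 and among the 4 called, and entered through groups where they were high. Nothing is therefore read from either count or from the median. From gd6.5 to gd8.5 no gene was called by edgeR, the 7 included, where 1071 of all genes and 3 of the 7 had an unadjusted p under 0.05, and DESeq2 called 221 genes and none of the 7. Against virgin mice at gd8.5, edgeR called none of the 7 and 0.422% of all genes. There 4 of the 7 had an unadjusted p under 0.05 and DESeq2 called 1 of them, with no share of all genes given for these counts. The 3 comparisons of stages share libraries. Leaving out either gd6.5 library left no call, whereas 4 or 5 genes were called without 1 of the virgin libraries. With replicate number as a block, none of the 7 was called, as with edgeR's own filter on low counts or with the other stage left out of the fit.

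Other genes of the pathway were described by the same lists in each comparison. At gd6.5, 5 of 19 tested tRNA synthetases rose, which load amino acids onto tRNA. They were Vars, Wars, Aars, Iars and Mars, with log2 differences of 1.18 to 1.52. Vars, for valine, went from 21.5 and 18.1 RPKM in virgin mice to 48 and 50.7. Of the other 5 tested genes of synthesis and folate metabolism, Shmt1 and Mthfd1, the cytosolic counterparts of the mitochondrial folate enzymes, rose. Shmt1 was at 3.94 and 9.45 RPKM in virgin mice and at 30.9 and 27.7 at gd6.5, with a log2 difference of 2.13 ± 0.41 (SE), adjusted p = 0.0334. It did not pass the filter through virgin mice, where it was low, so nothing is read from its call or from counts that include it. None of 4 other transporters, 2 kinases and factors or 2 feedback genes was called. With the other stage left out of the fit, no gene was called in this comparison, those named above included. Beside these differences, erythrocyte markers summed to 12.8 and 224 RPKM in virgin mice and at most 0.300 at gd6.5, and mast cell markers to 7.22 to 12.6 against 0.880 to 2.15. Ncr1, which encodes the NKp46 of the sort, fell at gd6.5, with a log2 difference of -1.03 ± 0.15 (SE), adjusted p = 0.0288. Their part in the result was not tested.

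Among the gd8.5 subsets, the same enzymes were higher in trNK-T than in trNK-V, with trNK-D between the means. Mthfd2 rose 6.42-fold, Asns 8.18-fold, Psat1 3.60-fold, Phgdh 3.05-fold and Shmt2 2.24-fold. Asns and Mthfd2 passed the filter only through subsets where they were high, so nothing is read from their calls. Neither Atf4 nor Slc3a2 was called. The comparison asks how trNK differ along the CD55 and 4-1BB gate, and Tnfrsf9 and Cd55 were in that gate: Tnfrsf9 was at 229 and 159.6 RPKM in trNK-V and 1351 and 1564 in trNK-T.

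Mthfd2 was at 6.11 and 7.73 RPKM in trNK-V, 12.8 and 23.8 in trNK-D and 45.4 and 43.4 in trNK-T. The 3 subsets did not overlap. The log2 difference of trNK-T from trNK-V was 2.68 ± 0.34 (SE), adjusted p = 0.00403. Asns was at 8.58 and 2.23 RPKM in trNK-V, 4.13 and 9.25 in trNK-D and 42.6 and 46 in trNK-T. The trNK-V and trNK-D libraries overlapped, and both trNK-T libraries lay far above them. Its log2 difference of trNK-T from trNK-V was 3.03 ± 0.68 (SE), adjusted p = 0.0175, and from trNK-D 2.73 ± 0.66 (SE), adjusted p = 0.0865. Asns passed the filter only through trNK-T, and Mthfd2 only through trNK-D and trNK-T.

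Phgdh was at 71.4 and 50.9 RPKM in trNK-V, 75.5 and 117 in trNK-D and 186 and 188 in trNK-T, with a log2 difference of trNK-T from trNK-V of 1.61 ± 0.26 (SE), adjusted p = 0.00721. Psat1 was at 25.1 and 16.6 RPKM in trNK-V, 22.2 and 49.4 in trNK-D and 70.8 and 79.5 in trNK-T. In Psat1 the trNK-D and trNK-V libraries overlapped, and its log2 difference of trNK-T from trNK-V was 1.85 ± 0.39 (SE), adjusted p = 0.0154. Shmt2 was at 36.6 and 31.8 RPKM in trNK-V, 38.5 and 67.4 in trNK-D and 68.5 and 84.8 in trNK-T. All trNK-T libraries of these 3 genes were above all trNK-D ones, in Shmt2 by little. The log2 difference of Shmt2 between trNK-T and trNK-V was 1.16 ± 0.28 (SE), adjusted p = 0.0225.

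Atf4 was at 71.3 and 86.6 RPKM in trNK-V, 52.5 and 61.2 in trNK-D and 70.6 and 60.5 in trNK-T, so both trNK-T libraries were below both trNK-V ones. The log2 difference was -0.27 ± 0.18 (SE), adjusted p = 0.279. Slc3a2 overlapped among the subsets, at 115 and 92.6 RPKM in trNK-V, 98 and 101 in trNK-D and 107 and 80.8 in trNK-T. Its log2 difference of trNK-T from trNK-V was -0.14 ± 0.20 (SE), adjusted p = 0.58.

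Slc7a5 was under the filter, at 1.58 and 1.11 RPKM in trNK-V, 6.01 and 3.79 in trNK-D and 8.35 and 7.07 in trNK-T. The subsets did not overlap. With edgeR's own filter, which tested 14335 genes, its log2 difference of trNK-T from trNK-V was 2.70 ± 0.44 (SE), adjusted p = 0.0226. Chac1 was at 0 in trNK-V and at 2.06 and 2.55 RPKM in trNK-T, at least 16.1-fold higher against a floor of 3 counts per library. Trib3 was at 0 in trNK-V and trNK-D and at 5.0 and 0.96 RPKM in trNK-T, with replicate 1 the higher one. With edgeR's own filter, neither Chac1 (adjusted p = 0.121) nor Trib3 (adjusted p = 0.0713) was called in trNK-T against trNK-V.

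**Figure D1:**
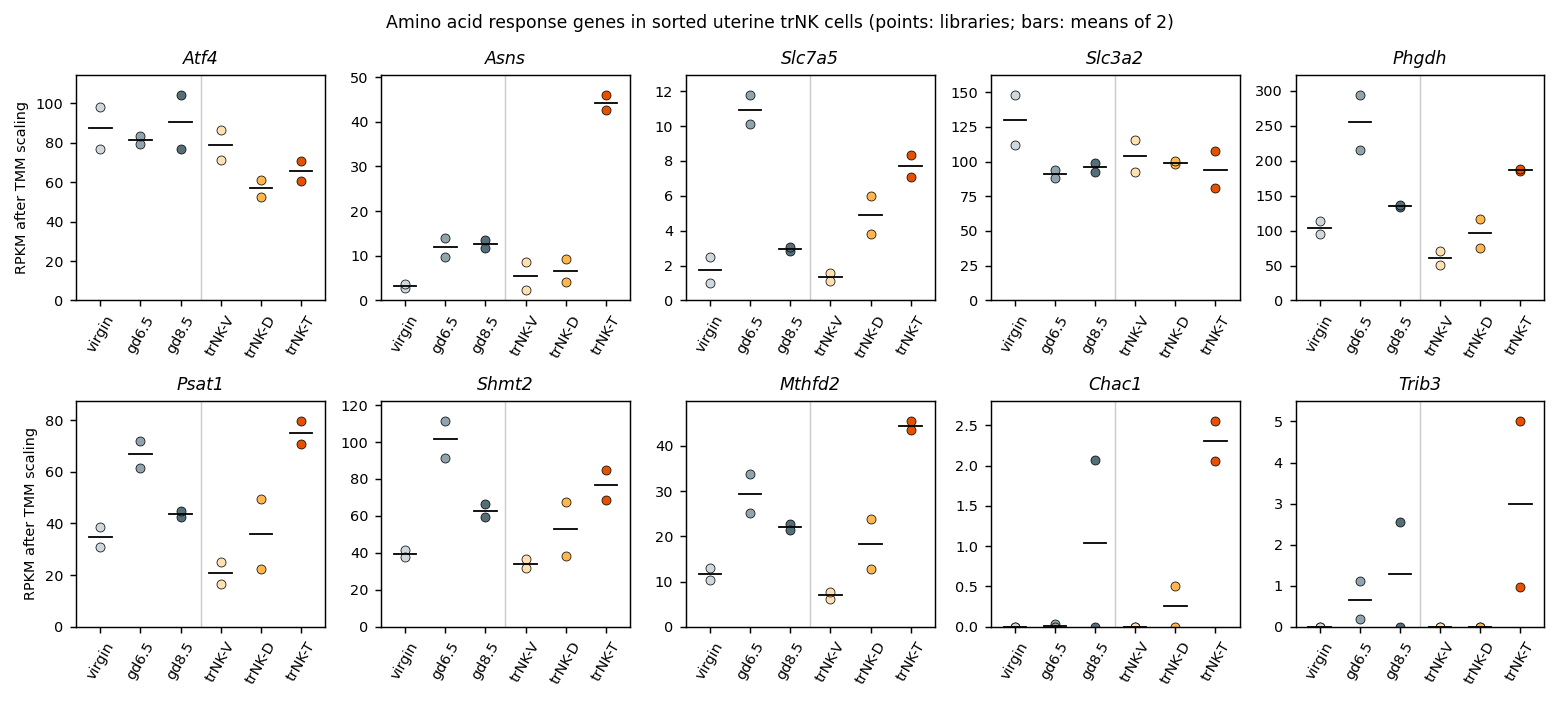
Level of each of the 10 genes (y axis, RPKM after TMM scaling, from 0) in the sorted groups (x axis), with points for libraries, bars for means of 2 libraries and a grey line between the gestation and subset experiments. In Asns the trNK-T libraries, at 42.6 and 46, lie above all others, whereas Atf4 stays between 52.5 and 104 in every library.

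All 5 genes called in trNK-T against trNK-V were higher, of 7 tested. Of all 4683 tested genes, 8.05% were called higher and 13.1% lower. The median log2 difference was 1.61 over the 7 genes and -0.01 over all. Between trNK-D and trNK-V none of the 7 was called by edgeR, which called 0.32% of all genes. There 3 had an unadjusted p under 0.05 and 1 was called by DESeq2, with no share of all genes given for these counts. Between trNK-T and trNK-D none was called by edgeR, which called 1.75% of all genes. There 4 had an unadjusted p under 0.05 and 3 were called by DESeq2, with no share of all genes given for these counts. In the same comparison 5 of the 7 had both trNK-T libraries above both trNK-D ones, against 28.6% of all genes. Of these, Asns entered only through trNK-T and Mthfd2 only through trNK-D and trNK-T, and both are among the 5 genes called against trNK-V. Nothing is therefore read from this count, from the count of calls against trNK-V or from the medians. The 3 comparisons share libraries. Leaving out 1 library of trNK-V or trNK-T at a time left 2 to 4 genes called, and Mthfd2 and Phgdh were among them each time. It was 2 genes without trNK-V replicate 2 and without trNK-T replicate 2. With replicate number as a block, all 5 were called.

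Ddit3 and Ppp1r15a, which respond to the same kinases, were lower in trNK-T. Ddit3, which encodes the CHOP factor, was at 61.2 and 44.6 RPKM in trNK-V, 52.9 and 22.8 in trNK-D and 20.0 and 10.2 in trNK-T. Ppp1r15a, which encodes the GADD34 subunit that removes the phosphate from eIF2α, was at 98.1 and 209.8 RPKM in trNK-V, 51.7 and 63.7 in trNK-D and 31.3 and 21.4 in trNK-T. Both fell from trNK-V to trNK-T, Ddit3 with a log2 difference of -1.81 ± 0.50 (SE), adjusted p = 0.0325, and Ppp1r15a with -2.55 ± 0.39 (SE), adjusted p = 0.00614. In Ppp1r15a the 3 subsets did not overlap. They were the 1 tested gene of the kinases and factors and 1 of 2 tested feedback genes.

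Of 19 tested tRNA synthetases, 6 rose in trNK-T against trNK-V (Cars, Rars, Nars, Yars, Gars and Iars) and none fell. Gars, for glycine, went from 32 and 25.2 RPKM in trNK-V to 79.2 and 94 in trNK-T, with a log2 difference of 1.60 ± 0.22 (SE), adjusted p = 0.0048. Of 5 other genes of synthesis and folate metabolism Shmt1 rose, from 4.82 and 2.34 to 19.5 and 28 RPKM, and none of 4 other transporters was called. Shmt1 did not pass the filter through trNK-V, where both libraries were low, so nothing is read from its call or from counts that include it. Markers of other cells differed between these subsets as well. The 4 epithelial markers summed to 6.54 to 11.1 RPKM in trNK-V and 53.3 to 58 in trNK-T, with Krt8, Krt18 and Krt19 at 0 in trNK-T. The 4 endothelial markers summed to 19.6 to 21 and 49.9 to 58.2 RPKM, and the 5 neutrophil and monocyte markers to 19.3 to 269 and 2.92 to 4.64. Klrb1c, which encodes the NK1.1 of the sort, fell in trNK-T against trNK-V, with a log2 difference of -1.70 ± 0.24 (SE), adjusted p = 0.00519. In trNK-D, plasma cell markers summed to 1727 RPKM in 1 library. Their part in the result was not tested.

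After 3 days of culture with IL-21, all 9 tested genes had higher values than without it. None was called, where 0.289% of all genes were. Each of the 9 had both IL-21 libraries above both libraries without IL-21, a pattern held by 17.6% of all 4158 tested genes. Of the 9, Mthfd2, Trib3 and Chac1 passed the filter only through groups with IL-21, where they were high, so nothing is read from this count or from the medians over the 9. With IL-21 and Stattic, Slc3a2 and Atf4 rose against the culture without IL-21, 5.26- and 3.25-fold. Phgdh, Psat1 and Shmt2 had values near or below those without IL-21. These comparisons ask what IL-21 does to trNK in culture and how much of it an inhibitor of STAT3 removes, and the 3 of them share libraries. No culture had Stattic without IL-21, so an effect of Stattic itself cannot be told apart from a change of the IL-21 effect.

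Asns was at 18.3 and 10.5 RPKM without IL-21, 71.9 and 111 with IL-21 and 36 and 82.2 with IL-21 and Stattic. Its log2 difference with IL-21 was 2.67 ± 0.52 (SE), adjusted p = 0.0905, and with Stattic as well 2.03 ± 0.51 (SE), adjusted p = 0.0659. Both treated groups were above the untreated libraries and overlapped each other. Mthfd2 was at 17.4 and 4.1 RPKM without IL-21, 31.9 and 66 with IL-21 and 28.6 and 32.6 with Stattic as well, and its log2 difference with IL-21 was 2.19 ± 0.68 (SE), adjusted p = 0.288.

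Atf4 was at 43.9 and 37.2 RPKM without IL-21, 70.3 and 109 with IL-21 and 158 and 105 with IL-21 and Stattic. The treated groups overlapped each other, and both were above the untreated one. The log2 difference was 1.15 ± 0.37 (SE), adjusted p = 0.306 with IL-21, and 1.70 ± 0.37 (SE), adjusted p = 0.0432 with IL-21 and Stattic. Slc3a2 was at 46.2 and 45.7 RPKM without IL-21, 99.4 and 165 with IL-21 and 249 and 235 with IL-21 and Stattic, with no overlap of the 3 groups. Its log2 difference was 1.52 ± 0.33 (SE), adjusted p = 0.116 with IL-21, and 2.40 ± 0.34 (SE), adjusted p = 0.0116 with both agents. The direct comparison of both agents with IL-21 alone did not call Slc3a2 (0.87 ± 0.33 (SE), adjusted p = 0.202) or Atf4 (0.55 ± 0.36 (SE), adjusted p = 0.465).

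Trib3 was at 0 and 1.96 RPKM without IL-21, 17.8 and 20.2 with IL-21 and 67.8 and 62.8 with IL-21 and Stattic, again in 3 separate levels. Its log2 difference with both agents was 6.05 ± 1.40 (SE), adjusted p = 0.0531, just over the limit. Chac1 differed from this, at 1.31 and 0 RPKM without IL-21, 13.3 and 30.4 with IL-21 and 0 and 6.08 with both. It was highest with IL-21 alone, and its log2 difference there was 5.05 ± 2.19 (SE), adjusted p = 0.542. Trib3 passed the filter only through the treated groups and Chac1 only through IL-21.

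Phgdh was at 34.3 and 33.8 RPKM without IL-21, 47.6 and 126 with IL-21 and 40.6 and 37.8 with IL-21 and Stattic. The IL-21 libraries differed from each other, with replicate 2 the higher one. Shmt2 was at 33.5 and 29, 39.1 and 93.1 and 35.3 and 29.8 RPKM in the same order of groups, and replicate 2 of IL-21 was again above replicate 1. Psat1 was at 27.5 and 12.2 RPKM without IL-21, 29 and 41.4 with IL-21 and 13.5 and 10.4 with both. Its log2 difference of both agents from IL-21 alone was -1.56 ± 0.47 (SE), adjusted p = 0.131. Slc7a5 was under the filter, at 2.09 and 0 RPKM without IL-21, 6.21 and 11.1 with IL-21 and 5.78 and 4.58 with both.

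**Figure D2:**
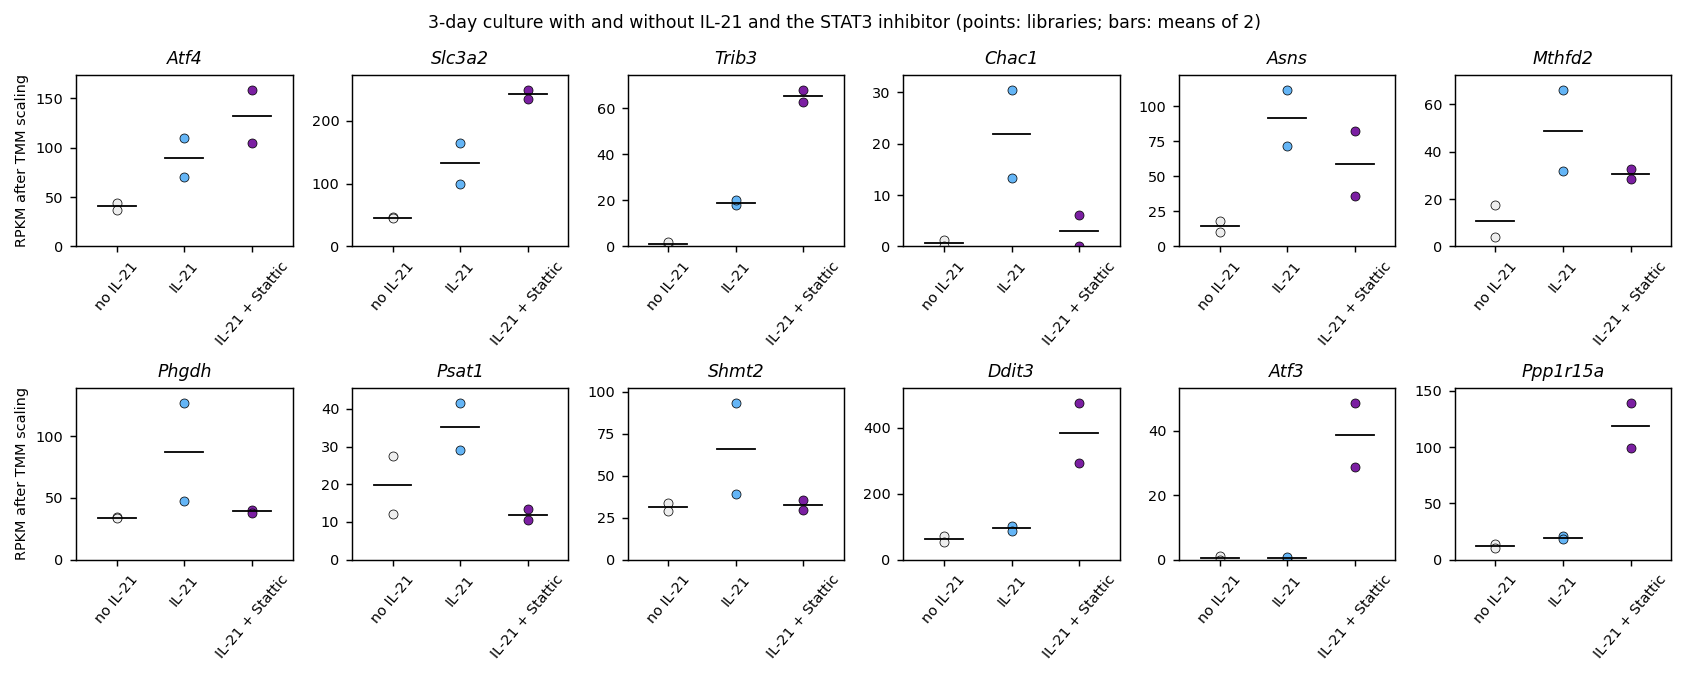
Level of the 9 tested genes and of Ddit3, Atf3 and Ppp1r15a (y axis, RPKM after TMM scaling, from 0) after 3 days without IL-21, with IL-21, or with IL-21 and Stattic (x axis), with points for libraries and bars for means of 2. Slc3a2, Trib3, Ddit3, Atf3 and Ppp1r15a are highest with Stattic, whereas Phgdh, Psat1 and Shmt2 are highest with IL-21 alone.

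With IL-21 alone, the median log2 difference was 1.52 over the 9 genes and -0.02 over all genes. No gene of the 9 was called by edgeR, which called 0.289% of all genes, all of them higher. There 7 of the 9 had an unadjusted p under 0.05 and DESeq2 called 3, with no share of all genes given for these counts. With both agents against no IL-21, 2 of the 9 were called higher, against 2.93% of all genes, and the median was 1.70. Against IL-21 alone, none of the 9 was called by edgeR, which called 2.96% of all genes. There 4 of the 9 had an unadjusted p under 0.05 and 1 was called by DESeq2, again without such a share. Leaving out any 1 library of the cultures without IL-21 or with both agents ended both calls, with adjusted p of 0.051 to 0.096 for Slc3a2 and 0.10 to 0.19 for Atf4. Without replicate 1 or 2 of the cultures lacking IL-21, Trib3 was the only gene called. With replicate number as a block, the adjusted p of Slc3a2 was 0.049 and that of Atf4 0.12. With edgeR's own filter on low counts, neither was called.

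Of the tested kinases, factors and feedback genes, Ddit3 and Ppp1r15a were called higher with both agents against both other groups. Atf3 was called only against no IL-21. Ddit3 was at 73 and 52.9 RPKM without IL-21, 102 and 87.6 with IL-21 and 293 and 474 with IL-21 and Stattic, and its log2 difference of both agents from IL-21 alone was 2.02 ± 0.36 (SE), adjusted p = 0.0351. Ppp1r15a was at 14.2 and 10.4, 20.7 and 18.4 and 139 and 99.6 RPKM in the same order, with 2.61 ± 0.35 (SE), adjusted p = 0.0146. Atf3, a factor induced downstream of ATF4, was at 1.15 and 0.0265 RPKM without IL-21, 0.325 and 0.741 with IL-21 and 28.9 and 48.5 with both. Its log2 difference of both agents from no IL-21 was 6.03 ± 1.27 (SE), adjusted p = 0.0381. It passed the filter only through the group with both agents, where it was high, so nothing is read from its call or from counts that include it. In all 3 genes both Stattic libraries were above all other libraries of the culture. Of 3 tested kinases and factors, 1 rose against IL-21 alone and 2 against no IL-21, and of 2 feedback genes 1 rose in each.

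Slc38a2, a transporter of small neutral amino acids that ATF4 is known to raise, was at 34.4 and 37.1 RPKM without IL-21, 32.5 and 33.2 with IL-21 and 90.1 and 78.6 with both. It rose against IL-21 alone, with a log2 difference of 1.36 ± 0.28 (SE), adjusted p = 0.0471. Of 19 tested tRNA synthetases none rose and only Vars fell, from 15.8 and 27.9 RPKM with IL-21 to 5.59 and 4.29 with both. In the cultures with Stattic, Klrb1c, which encodes NK1.1, and Ncr1, which encodes NKp46, fell against no IL-21. Ncr1 was at 485 and 374 RPKM without IL-21, 178 and 177 with IL-21 and 58.7 and 98.2 with both, and Klrb1c was at 566 and 531, 164 and 174 and 148 and 153. The NK marker list summed to 5273 to 6741 RPKM without IL-21, 4887 to 6477 with IL-21 and 2571 to 3066 with both. Their part in the result was not tested.

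**Figure D3:**
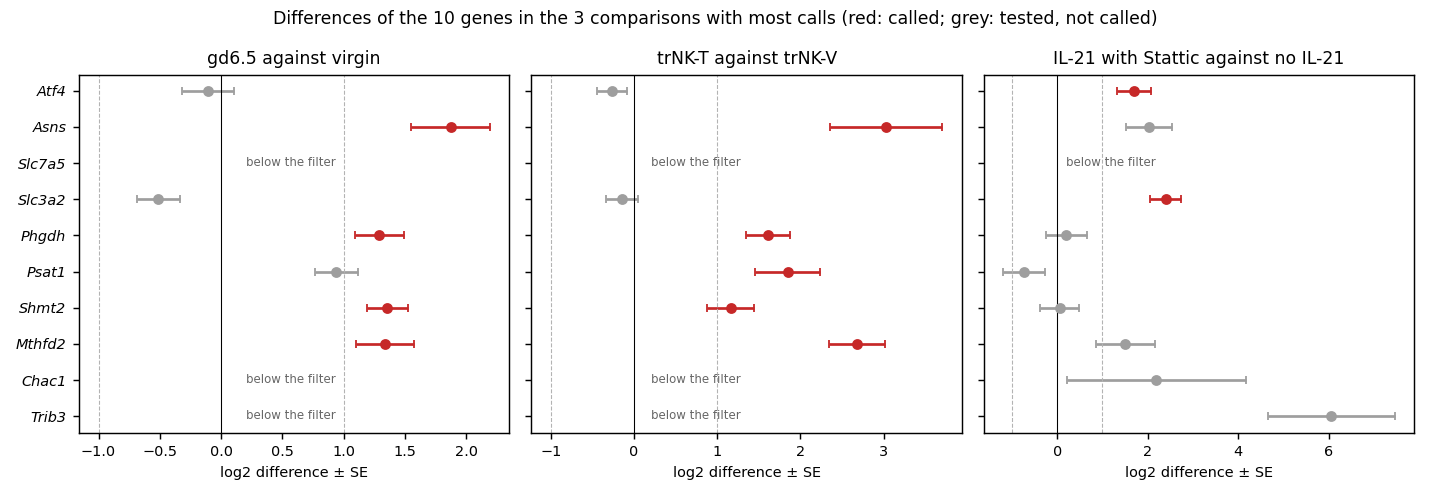
log2 difference of each gene (x axis, points; bars are ± 1 SE) in the 3 comparisons with the most calls among the 10 genes, with red for called, grey for tested and not called, and dashed lines at the fold limit. Phgdh, Shmt2, Mthfd2 and Asns are called at gd6.5, the same 4 and Psat1 in trNK-T, and Atf4 and Slc3a2 with IL-21 and Stattic. Nothing is read from the calls of Asns and Mthfd2, which passed the filter only through groups where they were high.

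In the time course the levels were low, and 1 of the 6 tested genes was called. Psat1 rose 8.24-fold with IL-21 at 72 h against 72 h without it, and fell 16.4-fold from 24 to 72 h without IL-21. Of all genes, 6.57% were called higher in the first comparison and 9.82% lower in the second. With 6 genes tested, a count of 1 is not set apart from these shares, and nothing is read from it. None of the 6 tested genes was called for IL-21 at 0, 6 or 24 h, where 0%, 1.97% and 1.66% of all genes were. The comparison asks when IL-21 acts on trNK in culture. These libraries were made with another kit than the rest, so levels are compared only within the time course.

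Psat1 was at 21.4 and 21 RPKM at 0 h, 23.6 and 19 at 6 h, 16.5 and 15 at 24 h and 1.46 and 0.458 at 72 h without IL-21. With IL-21 it was at 18.8 and 34.2 at 0 h, 19.9 and 29.8 at 6 h, 22.8 and 21.5 at 24 h and 11.8 and 3.96 at 72 h. Both groups were lowest at 72 h, and the libraries without IL-21 were lower still. The log2 difference for IL-21 at 72 h was 3.04 ± 0.61 (SE), adjusted p = 0.0115, and from 24 to 72 h it was -4.04 ± 0.64 (SE), adjusted p = 0.00158 without IL-21 and -1.49 ± 0.57 (SE), adjusted p = 0.0941 with it. The difference between the IL-21 effects at 72 and 24 h was 2.55 ± 0.81 (SE), adjusted p = 0.106, so a change of the effect over time was not called. Psph, the enzyme that completes serine synthesis after Psat1, was at 5.62 and 0.728 RPKM at 72 h without IL-21 and 20.3 and 15.3 with it, with a log2 difference of 2.49 ± 0.66 (SE), adjusted p = 0.0379.

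The calls of Psat1 rest on the 72 h libraries without IL-21, in which the mitochondrial share was highest and the number of genes detected lowest. The part of these values in the result was not tested. Leaving out replicate 1 of IL-21 at 72 h left no call, with an adjusted p of 0.056 for Psat1. Without replicate 2 of IL-21, the library with the fewest genes above 10 RPKM, 1 gene was called, and without replicate 1 or 2 of the cultures lacking IL-21, 4 or 2 genes were, Psat1 among them. In a fit of the 72 h groups alone none was called.

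Phgdh was at 8.04 and 11.6 RPKM at 0 h, 7.92 and 5.54 at 6 h, 3.21 and 2.76 at 24 h and 0 and 4.38 at 72 h without IL-21. With IL-21 it was at 2.2 and 16.3, 12.4 and 10.7, 12.9 and 7.36 and 2.43 and 2.13 at the same times. The IL-21 libraries were above the others at 6 and 24 h and overlapped them at 0 and 72 h. Mthfd2 with IL-21 was at 5.43 and 8.7 RPKM at 0 h, 11.3 and 13.9 at 6 h, 7.69 and 7.21 at 24 h and 1.65 and 0.994 at 72 h. Without IL-21 it was at 6.1 and 8.35, 6.53 and 3.62, 2.52 and 4.95 and 1.49 and 0. Its IL-21 libraries too were separate and higher at 6 and 24 h.

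Asns with IL-21 was at 10.6 and 11.3 RPKM at 6 h, 14 and 9.13 at 24 h and 5.71 and 4.22 at 72 h. Without IL-21 it was at 0.112 and 5.17, 3.3 and 2.13 and 0.352 and 0. The groups did not overlap at any of the 3 times, and the log2 difference at 72 h was 4.84 ± 1.81 (SE), adjusted p = 0.121. At 0 h the libraries labelled with IL-21 were at 1.12 and 11.8 RPKM and spanned those without it, at 6.56 and 5.16. Slc3a2 was at 12.2 and 7.11 RPKM at 24 h without IL-21 and 20.8 and 15 with it. Atf4 overlapped between the groups at all 4 times and was between 8.77 and 27.8 RPKM in all 16 libraries.

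**Figure D4:**
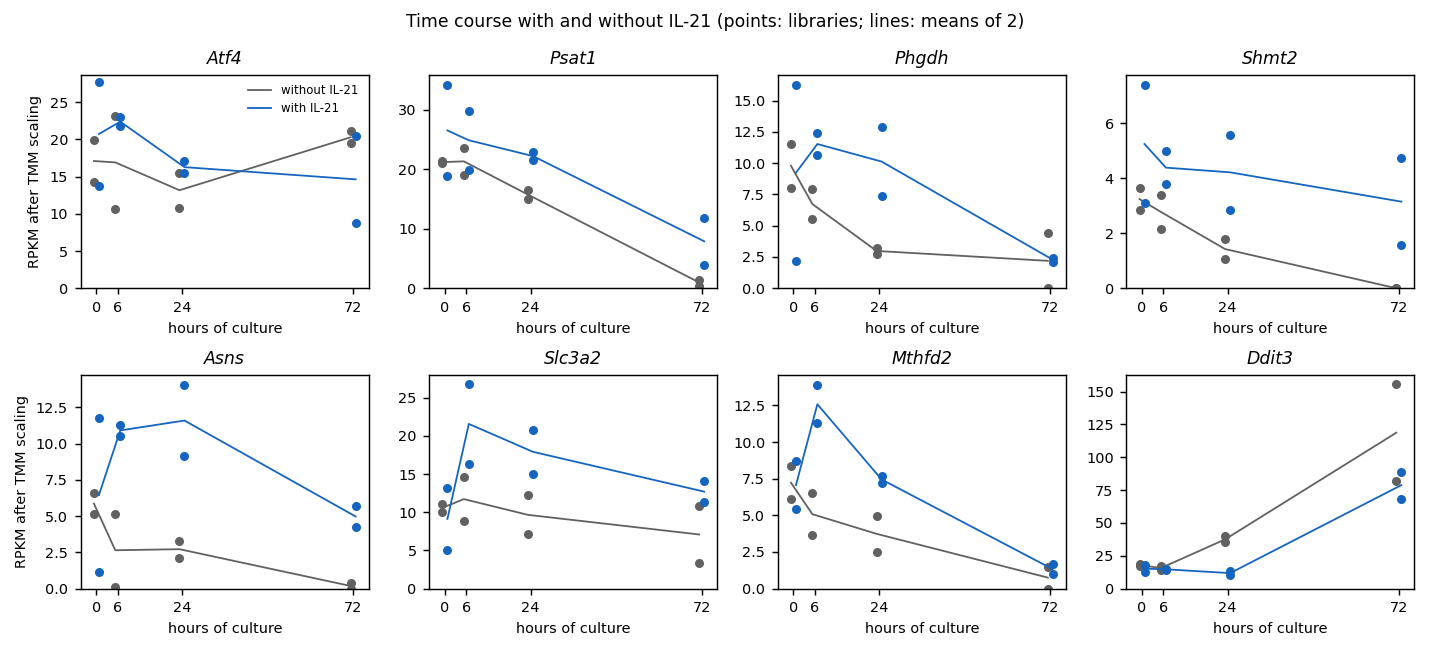
Level of 7 of the genes and of Ddit3 (y axis, RPKM after TMM scaling, from 0) over hours of culture (x axis), with grey for cultures without IL-21, blue for those with it, points for libraries and lines through means of 2. Psat1 without IL-21 ends at 1.46 and 0.458, against 11.8 and 3.96 with IL-21, and Ddit3 is highest at 72 h.

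Shmt2, Slc7a5, Chac1 and Trib3 were under the filter. Shmt2 was at 0 in both 72 h libraries without IL-21 and at 4.74 and 1.55 RPKM with it, with replicate 1 the higher one. With edgeR's own filter Shmt2 was tested and called higher with IL-21 at 72 h (adjusted p = 0.00059), lower from 24 to 72 h without IL-21 (adjusted p = 0.00081) and different in its IL-21 effect between 72 and 24 h (adjusted p = 0.0056), and with no filter it was called in all 3 as well. Slc7a5 was at most 2.09 RPKM in any library and at 0 in all 72 h libraries. Chac1 was at 0.238 and 0.794 RPKM at 6 h with IL-21 and at 0 in both 6 h libraries without it. Trib3 was at most 0.0315 RPKM.

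For IL-21 at 72 h, 1 of the 6 genes was called higher, against 6.57% of all 3503 tested genes, with 1.51% called lower. By unadjusted p under 0.05 it was 2 of the 6, and DESeq2 called 2, with no share of all genes given for these counts. Libraries with IL-21 were separate and higher for 4 of the 6 genes at 6 h, 5 at 24 h and 3 at 72 h, against 28.8%, 32.9% and 22.6% of all genes. Asns, Mthfd2 and Phgdh passed the filter only through IL-21 at 6 h, and Slc3a2 only through IL-21 at 6 and 24 h. All 4 genes counted at 6 h thus entered through the groups where they were high, and nothing is read from these counts. At 0, 6 and 24 h none of the 6 was called by edgeR or DESeq2 or had an unadjusted p under 0.05, and edgeR called 0%, 1.97% and 1.66% of all genes. From 24 to 72 h without IL-21, 1 of the 6 was called lower, against 9.82% of all genes, with 4.97% called higher. With IL-21, edgeR called none of the 6 over the same interval and 14.8% of all genes. There 1 had an unadjusted p under 0.05 and 1 was called by DESeq2, with no share of all genes given for these counts. From 0 to 6 h and from 6 to 24 h none of the 6 was called in either culture, by edgeR, DESeq2 or an unadjusted p under 0.05. Of all genes, edgeR called 0% and 0.0856% without IL-21 and 2.68% and 0.0285% with it. The difference of IL-21 effects was called for 0% of all genes between 6 and 24 h and for 4.22% between 24 and 72 h. Comparisons of the same time or treatment share libraries.

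Among the other genes of the pathway, Ddit3 was called in several comparisons. It was at 35.3 and 39.7 RPKM at 24 h without IL-21 and 13.4 and 10.1 with it, and fell with a log2 difference of -1.67 ± 0.35 (SE), adjusted p = 0.0349. At 72 h it was at 81.9 and 156 RPKM without IL-21 and 68.5 and 89.1 with it, and it rose from 24 to 72 h in both. Of 20 tRNA synthetases 8 were tested, and none was called for IL-21 at any time. From 24 to 72 h without IL-21, Rars, for arginine, fell from 19.3 and 26.5 to 2.09 and 7.73 RPKM, with a log2 difference of -2.22 ± 0.62 (SE), adjusted p = 0.0316. Psph fell from 19.8 and 16.9 to 5.62 and 0.728 RPKM, with -2.53 ± 0.66 (SE), adjusted p = 0.0246. With IL-21, Nars, for asparagine, fell from 43.2 and 51.9 to 24.5 and 16.2 RPKM, with -1.23 ± 0.26 (SE), adjusted p = 0.00942. Slc38a2 rose from 10.1 and 8.59 RPKM at 24 h to 14.6 and 23.8 at 72 h without IL-21, the only other transporter tested. Klrb1c fell with IL-21 at 6 and 24 h, with log2 differences of -1.54 ± 0.15 and -1.30 ± 0.15 (SE), and Ncr1 at 6 h, with -1.03 ± 0.15 (SE). Their part in the values of the 6 genes was not tested.

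The genes whose profile over the 8 groups was closest to the mean profile of the 6 tested genes were Pum3, Eif4a3, Pkm, Tpm3 and Cct8. Their root mean square differences on the log2(RPKM + 1) scale, here without TMM scaling, were 0.067 to 0.17, over 3503 genes ranked. Among the 6 genes themselves the differences from their mean ran from 0.26 for Phgdh to 0.64 for Atf4 and Psat1. This is a description over 8 groups that share libraries with the comparisons above. Asns, Mthfd2, Phgdh and Slc3a2 passed the filter only through IL-21 at 6 h or at 6 and 24 h. The filter thus favours a mean profile that is high there, and nothing is read from its shape.

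In the single cells, Asns, Slc7a5 and Mthfd2 were highest in a sub-cluster of trNK-like cells. That sub-cluster also had the highest Tnfrsf9 and Cd55 levels of any. Phgdh and Psat1 were about as high in a second sub-cluster, led by histone and mitosis genes. Levels of single cells are CPM, the summed UMIs of a gene scaled to all UMIs of the cells. The matrix held 15175 cells, and the limits of the study (200 to 2500 UMIs and under 10% mitochondrial UMIs) kept 4338, with 1607 UMIs as their median. The study states a larger number of cells after its quality control, so the cells kept here are not its own set. With the same limits read as genes per cell, 8907 were kept. The matrix is 1 sample, so no test was made, and the intervals are exact and cover counting error only. Of the 10 genes and the 59 other pathway genes, the 64 found in the matrix were left out of the clustering, and doublets were neither called nor removed. Clusters were named from markers, with naming thresholds chosen once the clusters were known. The trNK-like cells numbered 1739, with a median of 1582 UMIs, and the cells like conventional NK cells (cNK-like) numbered 850, with a median of 1593.

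Between trNK-like and cNK-like cells, Asns, Phgdh, Psat1 and Shmt2 had higher levels in trNK-like cells, with intervals of the ratio above 1. Asns had 67 UMIs against 15, a ratio of levels of 2.27 (95% interval 1.28 to 4.28). Phgdh had 147 UMIs against 37, with a ratio of 2.02 (95% interval 1.4 to 2.98). Psat1 had a ratio of 1.61 (95% interval 1.22 to 2.15) and Shmt2 of 1.38 (95% interval 1.11 to 1.72). The intervals of Mthfd2, 1.36 (95% interval 0.988 to 1.91), and of Slc7a5, 1.42 (95% interval 0.891 to 2.35), included 1. Atf4, 0.975 (95% interval 0.901 to 1.06), and Slc3a2, 0.979 (95% interval 0.858 to 1.12), had intervals that included 1. With the limits read as genes per cell, both were lower in trNK-like cells, Atf4 with 0.76 (95% interval 0.715 to 0.807) and Slc3a2 with 0.797 (95% interval 0.723 to 0.879). A cluster of 968 cells with Eomes and Itga1 raised had no name in that setting and is in neither group. Chac1 had 11 UMIs in trNK-like cells and 0 in cNK-like cells, and Trib3 had 10 and 3, a ratio of 1.7 (95% interval 0.437 to 9.59).

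UMIs of these genes were also found in B cell-like cells, a type outside the NK lineage, 231 cells with a median of 1604 UMIs. Whether these UMIs come from the cells or from free RNA was not tested. Asns had 3 UMIs there, or 7.83 CPM (95% interval 1.61 to 22.9), against 24.8 CPM (95% interval 19.2 to 31.5) in trNK-like cells. Mthfd2 had 10 UMIs there, or 26.1 CPM (95% interval 12.5 to 48), against 52.6 CPM (95% interval 44.3 to 62) in trNK-like cells. The B cell-like level was the lower one for both. The intervals overlapped, and overlap of separate intervals does not show that levels are alike. Phgdh had 13 UMIs, or 33.9 CPM (95% interval 18.1 to 58), against 54.4 CPM (95% interval 46 to 64). Psat1 had 15 UMIs, or 39.1 CPM (95% interval 21.9 to 64.6), against 79.6 CPM (95% interval 69.3 to 91). They overlapped for Phgdh, and for Psat1 the B cell-like level was the lower one. Shmt2 was at 109.6 CPM (95% interval 79 to 148) in B cell-like and 117 CPM (95% interval 104 to 130.3) in trNK-like cells, again with overlap.

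Among the 8 sub-clusters of trNK-like cells, sub-cluster 3 held 231 cells with a median of 1534 UMIs, led by A2m, Dsc2, Fam178b, Aqp9, Sema6a and Mcpt8. It had 1496 CPM of Tnfrsf9 and 474 of Cd55, against 638 and 169 in all trNK-like cells. Asns was at 101 CPM there and 13.2 in the other trNK-like cells, a ratio of 7.63 (95% interval 4.59 to 12.7). Slc7a5 had a ratio of 6.57 (95% interval 3.99 to 10.8) and Mthfd2 of 6.39 (95% interval 4.53 to 9.0). Psat1 followed with 3.24 (95% interval 2.4 to 4.33), Phgdh with 2.9 (95% interval 1.99 to 4.15) and Shmt2 with 1.81 (95% interval 1.36 to 2.37). Atf4 was lower than in the others, with 0.781 (95% interval 0.669 to 0.907), and Slc3a2 was near them, with 0.899 (95% interval 0.702 to 1.14). Chac1 had 1 UMI there, with a ratio of 0.657 (95% interval 0.0151 to 4.62). Trib3 had 2, with a ratio of 1.64 (95% interval 0.17 to 8.23). Ddit3, at 22.4 CPM, and Ppp1r15a, at 86.9, were below their levels of 53 and 237 in all trNK-like cells.

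Other sub-clusters held other sets of the genes. Sub-cluster 6, with 118 cells led by histone and mitosis genes, had Psat1 at a ratio of 2.64 (95% interval 1.77 to 3.84), Phgdh at 2.43 (95% interval 1.45 to 3.87) and Mthfd2 at 2.25 (95% interval 1.31 to 3.67), but Asns at 0.925 (95% interval 0.244 to 2.49). Its Phgdh, at 121 CPM, and Psat1, at 190.2, were within counting error of the 126 and 199 of sub-cluster 3. Sub-cluster 0, with 337 cells led by Klf2, Egr1, Fos and heat shock genes, had Atf4 at 1.45 (95% interval 1.31 to 1.61), Asns at 0.308 (95% interval 0.0966 to 0.758) and Mthfd2 at 0.258 (95% interval 0.116 to 0.505). In it Ppp1r15a was at 490.5 CPM and Ddit3 at 111. Sub-cluster 1, led by Vegfa and Cxcr4, held the highest Slc3a2 of the sub-clusters, at 379.8 CPM. Sub-cluster 5, with 211 cells and a median of 759 UMIs, was led in part by small RNAs. It had Atf4 at 1.69 (95% interval 1.46 to 1.94), Shmt2 at 2.46 (95% interval 1.8 to 3.32) and Slc7a5 at 2.78 (95% interval 1.4 to 5.14). Chac1 had 5 UMIs there and 6 in the other trNK-like cells, a ratio of 10.2 (95% interval 2.45 to 39.9). The median depth of sub-cluster 5 was the lowest of the sub-clusters, and the part of depth in these values was not tested.

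**Figure D5:**
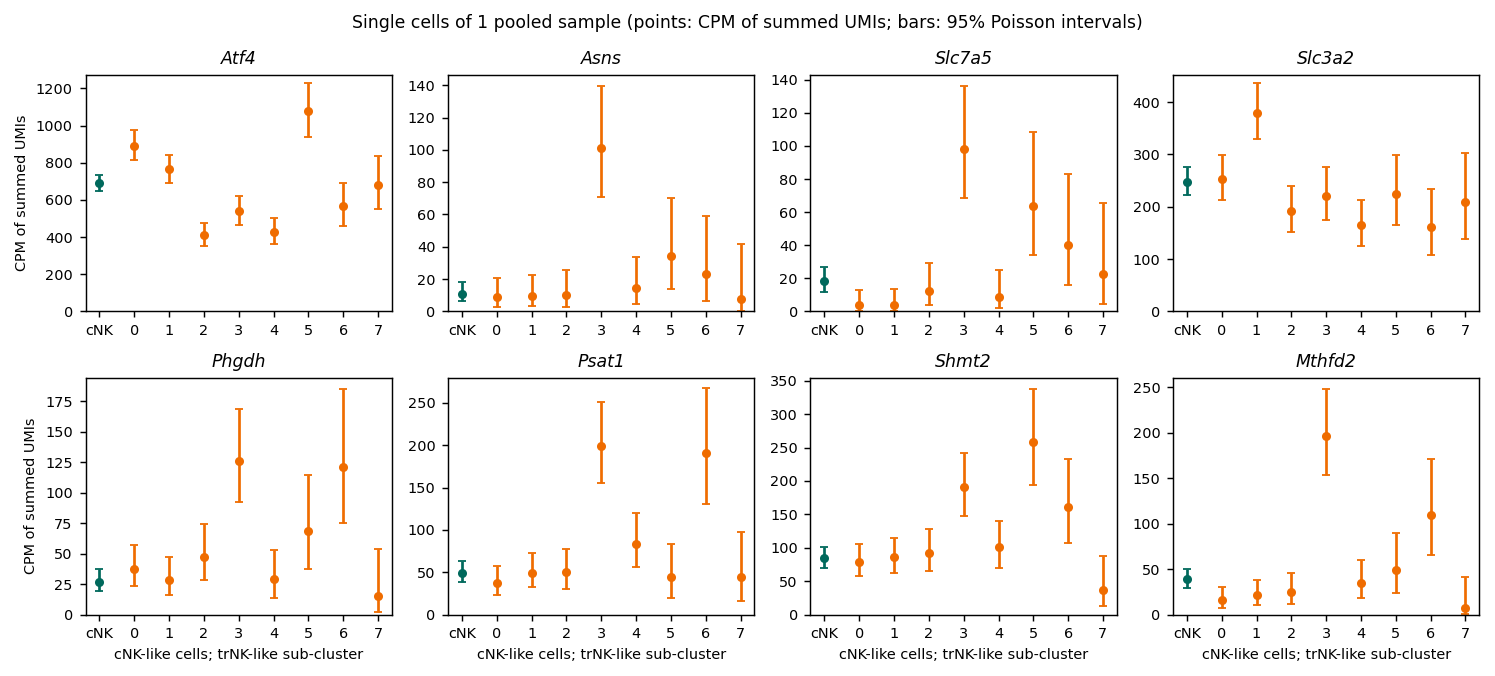
CPM of summed UMIs (y axis, from 0) of 8 of the genes in cNK-like cells (green) and in the 8 trNK-like sub-clusters (orange, numbered on the x axis), with points for the level and bars for 95% Poisson intervals. Sub-cluster 3 holds the highest Asns, Slc7a5 and Mthfd2, Phgdh and Psat1 are high in sub-clusters 3 and 6 with intervals that overlap, and sub-cluster 5 has the highest levels of Atf4 and Shmt2.

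The upper limit removed all cells above 2500 UMIs. Without it the largest trNK-like cluster, 2048 cells, had a median of 9973 UMIs, and the cNK-like cells, 1048, one of 1737. The sub-clusters above thus hold only the shallower trNK-like cells, and their sizes depend on the limit. With no upper limit, 13084 cells were kept and the trNK-like to cNK-like ratios of Asns, Slc7a5 and Mthfd2 were larger. Asns then had a ratio of 5.11 (95% interval 3.37 to 8.17), Slc7a5 of 4.14 (95% interval 2.94 to 6.03) and Mthfd2 of 2.51 (95% interval 2.07 to 3.08), whereas Atf4 was at 0.742 (95% interval 0.703 to 0.785). The direction of each was that seen with the limit, and the intervals of Slc7a5, Mthfd2 and Atf4, which included 1 with the limit, then excluded it. Clusters of 1818 and 515 cells, with medians of 7489 and 9605 UMIs, had Eomes raised and no name without the limit. They are in neither group, so these ratios are of another set of cells than those with the limit.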

How the data were processed

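The authors sorted uterine trNK and prepared bulk libraries with SMART-Seq HT, or for the time course with a Vazyme full-length kit by the labels. The submitters' processing notes name HISAT2 2.1.0 and featureCounts on mm10, and the methods name RSEM and limma. The values the authors deposited are unnormalized whole-number counts per gene with exon lengths. The deposited single-cell values are UMI counts from BD Rhapsody, 1 matrix of virgin and gd8.5 cells, with the gene columns divided between files and all 15175 cells in each.

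From the counts, TMM scaling and RPKM were computed, and each experiment was fitted with edgeR 4.0.16 (quasi-likelihood, R 4.3.3), with Benjamini-Hochberg adjustment over all genes that passed the filter (both libraries of at least 1 group above 10 RPKM before TMM scaling). Each SE is the log2 difference over the root of F. Common dispersion gave a biological coefficient of variation of 0.254 (gestation), 0.248 (subsets), 0.359 (3-day culture) and 0.414 (time course). Alternatives used DESeq2 1.42.0 and voom in limma 3.58.1, other filters, a replicate block and fits without each library. The fit was tested on simulated data. Single cells were clustered with scanpy 1.11.5 and leidenalg 0.10.2. The 10 genes were named in every library, and of 59 other pathway genes only called ones. The genes and lists were chosen with earlier results of these data known. The ATAC libraries and gd11.5 were not analysed here.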

Additional observations from a re-analysis of the deposited data

How the results depend on the processing

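The limits are those of 2 libraries per group and of the spread between them, which is larger in both cultures than in the sorted cells. Counts in this section are of the 10 genes called. Except at gd6.5 against virgin, they stand without the share of all genes in the same setting. They show only how the calls move with the setting, and nothing more is read from them. At gd6.5 against virgin, 4 were called, and 0 with the replicate block, with edgeR's own filter or with only the 2 groups in the fit, and 0 to 5 without 1 library each. Over all genes the same comparison called 278, against 2 with the block, 5 with edgeR's own filter, 0 with only the 2 groups, 462 by DESeq2 and 919 with no filter. DESeq2 called 1 at gd8.5 against virgin, 1 in trNK-D against trNK-V, 3 in trNK-T against trNK-D, 3 for IL-21 in the 3-day culture and 1 for Stattic against IL-21 alone, where edgeR called 0 each time. It called 4 for IL-21 with Stattic against no IL-21 (edgeR 2), 2 for IL-21 at 72 h (edgeR 1), 2 from 24 to 72 h without IL-21 (edgeR 1), and 1 with IL-21 and 1 for the difference of the IL-21 effects (edgeR 0). With no filter on low counts, the calls were 6 at gd6.5 against virgin (Slc7a5 and Trib3 added), 2 at gd8.5 against virgin, 1 at gd8.5 against gd6.5, 2 in trNK-D and 8 in trNK-T against trNK-V, 5 in trNK-T against trNK-D, 5 for IL-21 in the 3-day culture, 2 for Stattic against IL-21 alone and 5 against no IL-21. In the time course they were 3 for IL-21 at 72 h, 5 from 24 to 72 h without IL-21, 3 with it and 2 for the difference of effects. With edgeR's own filter, they were 0 for IL-21 with Stattic against no IL-21, 2 for IL-21 at 72 h, 2 from 24 to 72 h without IL-21 and 1 for the difference of effects. With only the groups compared, they were 4 for IL-21 with Stattic against no IL-21, 1 for IL-21 at 6 h (Mthfd2) and 0 for the 72 h comparisons that were called. voom called 2 from 24 to 72 h without IL-21 and 3 for IL-21 with Stattic against no IL-21.

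Without 1 library each, the calls were 0 to 2 at gd8.5 against virgin, 2 to 4 in trNK-T against trNK-V, 0 to 1 for IL-21 in the 3-day culture, 0 to 1 for IL-21 with Stattic against no IL-21, 0 to 4 for IL-21 at 72 h, 1 to 3 from 24 to 72 h without IL-21, 0 to 1 with it and 0 to 2 for the difference of effects. The difference of IL-21 effects at 72 and 24 h was -1.71 in Phgdh and -0.17 in Mthfd2, neither called. It changed sign to 9.08 in Phgdh without replicate 2 of 72 h without IL-21, and was -2.62 without replicate 1. In Mthfd2 it changed to 9.57 without replicate 1 and was -1.14 without replicate 2. In each reversal the library that was left had a count of 0, and the gene was called (adjusted p = 0.0383 and 0.000916 by edgeR). The labels do not say that a replicate number marks a shared source, although sample names of the subsets and the 3-day culture carry the number across groups, so libraries were not paired. Correlations of deviations ran from -0.308 to 0.110 in gestation, -0.008 to 0.387 in subsets, -0.431 to 0.540 in the 3-day culture and -0.337 to 0.407 in the time course. With the replicate block 5 genes were called in trNK-T against trNK-V, and 1 for IL-21 with Stattic against no IL-21 (Slc3a2). The ratio of trNK-like to cNK-like cells for the sum of the 10 genes was 1.09, 1.00 with the limits read as genes per cell and 1.23 with no upper limit. The trNK-like cells are another set of cells in each of these settings.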
